A study of Mus musculus with 3 samples.

Results

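The Ebf genes (Ebf1, Ebf2, Ebf3 and Ebf4) encode the early B cell factors, a small family of transcription factors. They were chosen by family name from the 31055 genes of the raw count matrices, in which all 4 were found, and are described here across the cell clusters of the mouse olfactory bulb. The samples were 3 adult C57Bl/6 mice of a single group, without a treatment contrast. Each mouse had received a retrogradely transported virus, retroAAV-CAG-H2B-GFP, in the piriform cortex (PCx) and the anterior olfactory nucleus (AON), the CAG promoter being active in many cell types. Nuclei of the olfactory bulb were sorted for the nuclear GFP and sequenced with 10x 3' v3 chemistry as 1 library per mouse. The comparisons are therefore between clusters of nuclei, with the mouse as the replicate.

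Ebf factors bind DNA as dimers through a conserved amino-terminal domain. They are best known from B lymphocyte development (Ebf1), from olfactory sensory neurons, in which the family was also found as Olf-1, from fat cells, and from migrating and early-born neurons such as Cajal-Retzius cells (Ebf2 and Ebf3). In the olfactory bulb, mitral and tufted cells are the glutamatergic projection neurons that carry odor signals to cortex, and external tufted cells lie around the glomeruli. The study compared subtypes of these neurons, named M1 to M3 (mitral), T1 (middle tufted) and ET1, ET2 and ET4 (external tufted). It also named an ET3 subtype and putative periglomerular cells, which were not assigned to a subcluster here. Its marker lists, chosen on these same nuclei, hold Ebf1 for M1 and Ebf2 and Ebf3 for ET2, and the clusters were formed on the same counts. High levels of these genes in M1 and ET2 are therefore no independent evidence, and tests between clusters describe the size of a difference against the spread between mice.

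The share of reads from the part that encodes the DNA-binding region was not examined, but the 4 mRNAs are similar there. The most similar stretch of 120 coding bases shared by all members is shown to make this visible, read 5′ to 3′ from the GENCODE M21 transcripts Ebf1-202 (coding bases 130 to 249), Ebf2-203 (127 to 246), Ebf3-208 (130 to 249) and Ebf4-203 (424 to 543). Capitals mark the bases that differ from Ebf1.
Ebf1: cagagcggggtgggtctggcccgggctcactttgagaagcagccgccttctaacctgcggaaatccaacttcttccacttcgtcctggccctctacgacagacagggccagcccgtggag
Ebf2: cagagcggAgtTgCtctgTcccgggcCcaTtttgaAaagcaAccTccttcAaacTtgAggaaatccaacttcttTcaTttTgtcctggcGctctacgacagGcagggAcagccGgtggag
Ebf3: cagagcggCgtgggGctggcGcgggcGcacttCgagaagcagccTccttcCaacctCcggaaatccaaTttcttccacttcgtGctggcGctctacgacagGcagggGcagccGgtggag
Ebf4: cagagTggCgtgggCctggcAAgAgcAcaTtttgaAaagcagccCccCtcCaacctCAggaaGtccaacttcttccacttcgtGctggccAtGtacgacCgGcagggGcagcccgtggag
In this window 87 of 120 bases were the same in all members, with 19, 14 and 21 differences from Ebf1 in Ebf2, Ebf3 and Ebf4. Over the aligned coding sequence, Ebf1 and Ebf3 were the closest pair (79.5% identical bases) and Ebf2 and Ebf4 the most distant (69.1%). No pair of members shared an identical word of 31 bases in its transcripts, and the longest identical coding run was 27 bases, between Ebf3 and Ebf4.

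The genes lie on different chromosomes of GRCm38, in loci of unequal length. Ebf1 (ENSMUSG00000057098) spans 391 kb on the plus strand at chr11:44617317-45008091. Ebf2 (ENSMUSG00000022053) spans 198 kb on the plus strand at chr14:67233292-67430918, Ebf3 (ENSMUSG00000010476) 121 kb on the minus strand at chr7:137193673-137314445, and Ebf4 (ENSMUSG00000053552) 75.3 kb on the plus strand at chr2:130295169-130370481. Antisense genes overlap 3 of the loci: Gm12158 in Ebf1, Gm6878, 4930438E09Rik and Gm10860 in Ebf2, and Gm45278 and Gm10578 in Ebf3. The sources used here do not say whether reads were counted by strand, so that reads of a member and of its antisense partner may not be told apart.

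Over the 31703 retained nuclei, Ebf1 had 37601 UMIs (unique molecular identifiers, 1 per counted RNA molecule) in 5.63% of nuclei, Ebf2 1162 UMIs in 1.44%, Ebf3 2404 UMIs in 1.74% and Ebf4 2159 UMIs in 4.79%. The members divided between the projection neurons and the rest. The 7504 nuclei that were placed in subclusters as projection neurons held 94.98% of the UMIs of Ebf1, 95.9% of Ebf3 and 76.6% of Ebf2, but 7.41% of those of Ebf4. Of the subclusters, 2 and 9 had 2059 and 1900 CPM of the 7 inhibitory markers, against 129 to 696 CPM in the others, so that not all of these nuclei may be projection neurons. Levels are given as CPM, the UMIs of a gene per 1e+06 UMIs summed over the nuclei of a mouse in a cluster, as mean ± SD over 3 mice unless stated. Since the members differ in length, levels are not compared between them. Shares of nuclei carry exact 95% intervals, and these cover counting error only.

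The libraries held 5845, 21105 and 4753 retained nuclei in mice 1, 2 and 3, with medians of 7940, 8420 and 10568 UMIs per nucleus. Mouse 2 therefore dominates any value pooled over nuclei. The mice shared 8 to 39 cell barcodes per pair. The M1 subcluster held 14 nuclei in mouse 1, against 465 and 207 in mice 2 and 3, and the 13 M1 markers other than Ebf1 had a summed level of 1145 CPM there, against 6361 and 6447 CPM. The Ebf1 level, the contrasts of Ebf1 and the calls of listed genes in M1 are for this reason also given without mouse 1.

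All members differed between subclusters and between clusters. In edgeR's quasi-likelihood F test over 27 mouse-by-subcluster sums, the adjusted p was 3.75e-12 for Ebf1, 8.97e-17 for Ebf2, 9.25e-18 for Ebf3 and 5.77e-06 for Ebf4. Such a difference was common, at 66.6% of the 13715 genes tested. Over 65 sums of the clusters of all nuclei, the adjusted p lay between 4.05e-40 (Ebf3) and 9.98e-21 (Ebf4), where 85.3% of 17028 genes passed. When each subcluster was set against the mean of the others (adjusted p under 0.05 and a log2 fold change beyond 1), 8 contrasts of a member were higher and 10 lower, of 36. Over all genes, 4.24% to 8.05% were higher and 0.284% to 9.62% lower in a contrast. Of 32 pairs of neighbouring subclusters in the order of each member's mean, 3 differed, where 9.64% to 49.3% of all genes differed in the same pairs. Most neighbours in the order of a member's levels were thus not told apart.

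**Figure D1:**
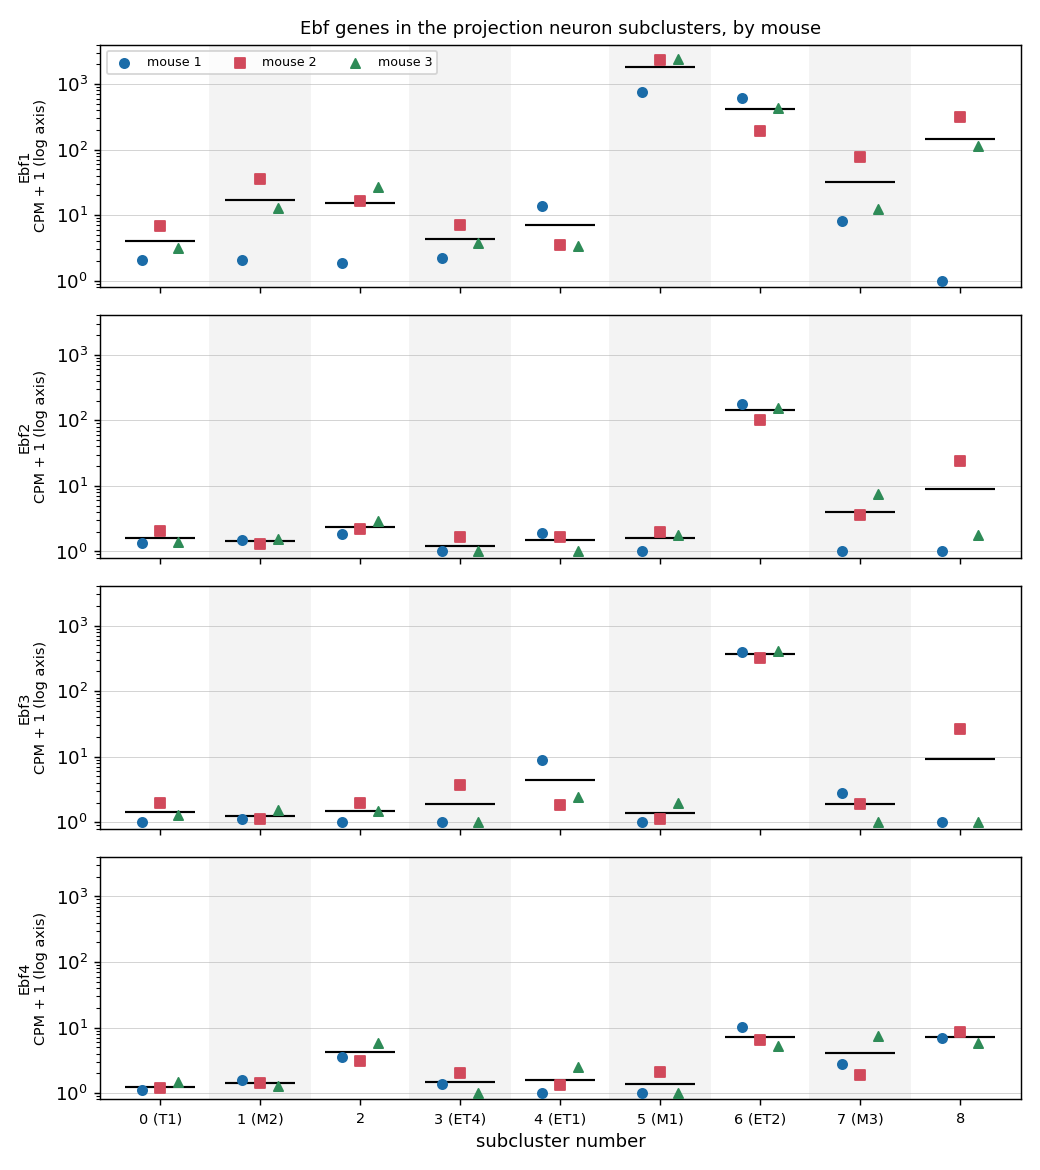
Level of each Ebf gene in the projection neuron subclusters, 1 panel per gene, with CPM + 1 on a log axis, a point per mouse and a bar at the mean. Ebf1 is highest in M1 (mean 1840 CPM) and next in ET2 (409 CPM), Ebf2 and Ebf3 stand out in ET2, and Ebf4 does not exceed 9.26 CPM in the subclusters shown (0 to 8).

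Ebf1, the factor required for B cell development, had its highest level among the subclusters in the M1 mitral cells. Its level in M1 was 761, 2322 and 2437 CPM in mice 1, 2 and 3 (1840 ± 936 CPM, SD, n = 3; 2379 ± 81.3 CPM without mouse 1). Among the subclusters with at least 10 nuclei in a mouse, M1 had the highest level of Ebf1 in all 3 mice, and mouse 1 was the low one. M1 held 84.4% of all Ebf1 UMIs. Of 686 M1 nuclei, 96.6% (95.01% to 97.9%) had at least 1 Ebf1 UMI, and 645 had 5 or more, up to 201 in a nucleus. In mouse 1 it was 7 of 14 nuclei, and in mice 2 and 3 98.5% and 95.7%, and the median nucleus held 0.5, 38 and 60 UMIs. As a background, 2.29% of nuclei of the large inhibitory cluster 0 had an Ebf1 UMI at a median depth of 7563 UMIs, against 18005 in M1. After each nucleus was thinned to 3000 UMIs, 95.01% of M1 nuclei and 1.10% of cluster 0 nuclei had one, and the mean share of M1 over mice was 75.8% ± 34.7.

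In the contrast with the other subclusters, Ebf1 was 6.54 higher in M1 on the log2 scale (SE 0.40, adjusted p = 6.73e-14), a direction in which 6.88% of genes passed. The call held in all 9 alternatives run, with log2 fold changes of 6.16 to 7.07 and 6.76 without mouse 1. In the clusters of all nuclei, cluster 13, which holds the M1 nuclei, gave 7.43 (SE 0.26), where 12.8% of genes were higher.

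ET2 came second by the mean over mice, with 602, 191 and 435 CPM of Ebf1 (409 ± 206 CPM) in mice 1, 2 and 3. In mouse 2, subclusters 8 (315 CPM) and 9 (289 CPM, 72 nuclei) were above it, and in mouse 3 the 8 nuclei of subcluster 9 had 804 CPM. The highest ET2 value lay below the lowest M1 value, so that the mice of the types did not overlap. Ebf1 was 3.90 higher in ET2 than in the mean of the others on the log2 scale (SE 0.46, adjusted p = 4.14e-08), in a contrast with 6.75% of genes higher. Between M1 and ET2 the difference was 2.34 on the log2 scale (SE 0.70, adjusted p = 0.0133, with 22.5% of genes differing). That call depended on the mice. It was 3.05 with an adjusted p of 0.000518 without mouse 1, but 1.77 without mouse 2 (adjusted p = 0.0660), 2.15 without mouse 3 (0.154) and 2.26 in DESeq2 (0.223).

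The distribution of Ebf1 over ET2 nuclei was uneven. Of 471 nuclei, 312 had no Ebf1 UMI, 60 had 1 to 4, and 99 had 5 or more, up to 100. The share with at least 1 UMI was 33.8% (29.5% to 38.2%), and 25.9% after thinning to 3000 UMIs.

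Outside M1 and ET2, levels of Ebf1 were lower in the mean over mice. Subcluster 8, which carried no single marker list and stays unnamed, had 0, 315 and 112 CPM in mice 1, 2 and 3, where the 0 of mouse 1 allows up to 8.83 CPM. Its log2 difference from the mean of the others was 2.44 (SE 0.57, adjusted p = 0.00367, with 4.24% of genes higher), and the call was lost without mouse 2 (adjusted p = 0.0746), without mouse 3 (0.0501), without the 5% of nuclei with the most UMIs (0.0819) and in DESeq2 (0.102). The mice of subcluster 8 overlapped with those of ET2 (adjusted p = 0.244, and 0.0296 with the mouse as a block) and with those of M3 (0.0951, and 0.0437 with the block). Levels in M3 were 7.26, 75.0 and 11.3 CPM, and in M2 1.07, 34.7 and 11.8 CPM. Subcluster 2, also unnamed, had 0.860, 15.3 and 26.2 CPM. T1, ET1 and ET4 were at 13.01 CPM or less in every mouse.

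A set of 50 nuclei outside M1 and ET2 had 10 or more Ebf1 UMIs, 43 of them in mouse 2. They held 97.2% of the Ebf1 UMIs of subcluster 8, 99.2% of those of the small subcluster 9 and 90.2% of those of M2. The share was 75.2% in subcluster 2, 69.8% in M3, 57.1% in ET1, 33.8% in T1 and 30.2% in ET4. The summed level of the 13 other M1 markers was 3199 CPM in these nuclei, against 109 CPM in nuclei of the same subclusters without Ebf1 and 6331 CPM in M1. Their median depth was 23938 UMIs, against 15329. In subcluster 8 the M1 marker level was 5114 CPM in the 7 nuclei of this kind and 318 CPM in those without Ebf1. The part of M1 markers and of depth in the Ebf1 levels outside M1 was not tested.

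**Figure D2:**
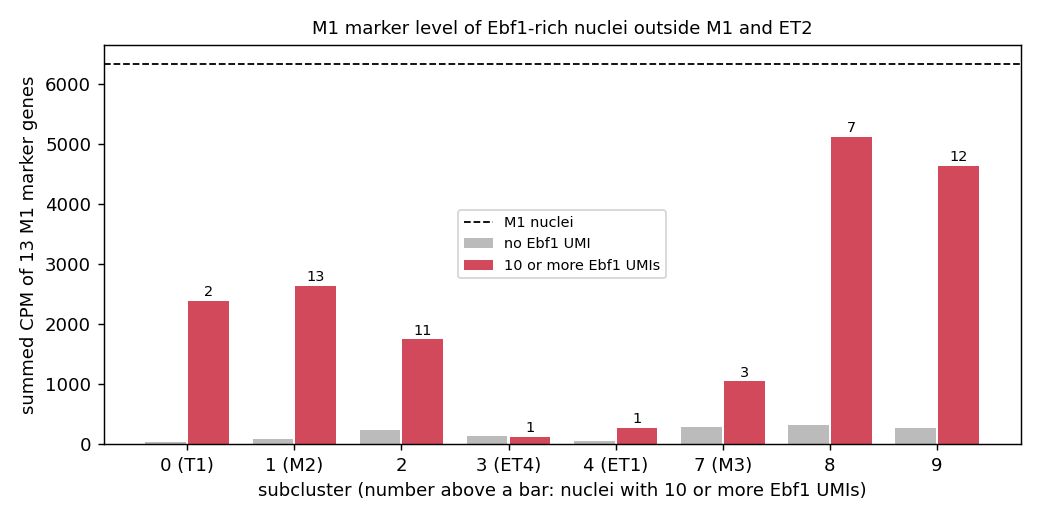
Summed CPM of 13 M1 markers (Ebf1 excluded) in nuclei outside M1 and ET2, by subcluster, for nuclei without Ebf1 and for those with 10 or more Ebf1 UMIs, pooled over mice, with the number of the latter above the bar and a dashed line at the level of M1. In subclusters 8 and 9 the bars of the Ebf1-rich nuclei reach 5114 and 4624 CPM, and in ET4 and ET1 they stand on 1 nucleus each.

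The lower calls of the subclusters were made against a mean that includes M1 and ET2. In T1, all members were lower, with log2 fold changes of -3.70 for Ebf1, -1.56 for Ebf2, -2.10 for Ebf3 and -2.37 for Ebf4, where 6.36% of genes were lower. In M2, Ebf2, Ebf3 and Ebf4 were lower (6.19% of genes), in ET4 Ebf1 and Ebf2 (9.62% of genes), and in ET1 Ebf1 alone (4.11% of genes). Of these 10 calls, those of Ebf1 in T1 and in ET4 held in every alternative run, and the other 8 were lost in at least 1 of them.

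Ebf1 was also found in non-neuronal nuclei that the sort had let through. Cluster 18 had 804, 540 and 478 CPM (607 ± 173 CPM) in mice 1, 2 and 3, and all 3 values exceeded those of every cluster other than 13 and 14. It expressed 8 of 8 vascular and 5 of 5 fibroblast markers, and since both sets were high it is called by its number. Ebf1 UMIs were present in 59.0% (51.2% to 66.4%) of its 173 nuclei, at a median of 4578 UMIs per nucleus. The log2 difference from the other clusters was 5.25 (SE 0.37, adjusted p = 1.14e-18), with 14% of genes higher. Within the cluster, Ebf1 was found in 20 of 23 nuclei with Cldn5 (an endothelial tight junction gene), in 13 of 13 with Abcc9 and 15 of 16 with Rgs5 (genes of pericytes), and in 62.4% of 101 nuclei with Dcn (decorin, a fibroblast gene).

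Cluster 19, with 5 of 5 markers of oligodendrocyte precursor cells at their highest, had 96.1, 74.6 and 106 CPM of Ebf1 (92.3 ± 16.04 CPM). The 3 values lay close together, and all were above those of the astrocytes of cluster 9 (2.10, 16.6 and 24.2 CPM). The contrast was 2.51 on the log2 scale (SE 0.57, adjusted p = 0.000598, with 9.88% of genes higher). In cluster 21, a shallow unnamed cluster measured in mice 2 and 3, Ebf1 stood at 149 and 56.2 CPM, with a log2 difference of 2.84 (adjusted p = 0.0318, 1.5% of genes higher) that was lost without either mouse. Levels in cluster 20 rested on 34 UMIs in 3 nuclei of mouse 2.

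**Figure D3:**
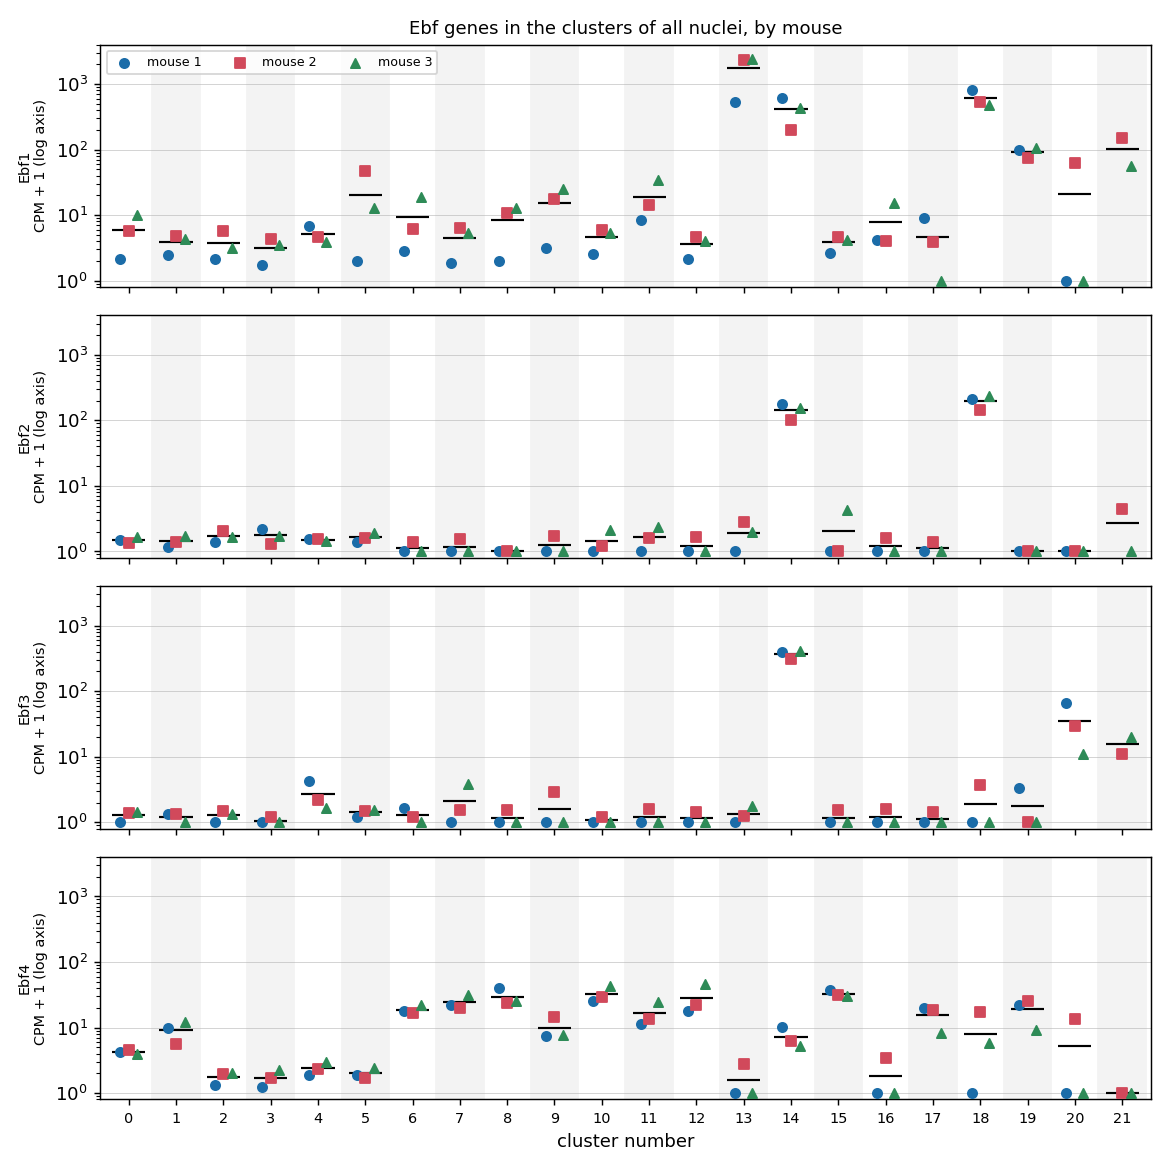
Level of each Ebf gene in the clusters of all nuclei, 1 panel per gene, with CPM + 1 on a log axis, a point per mouse and a bar at the mean. Ebf1 is high in clusters 13 (M1), 14 (ET2) and 18, Ebf2 in clusters 14 and 18, Ebf3 in cluster 14 and at a lower level in cluster 20, and Ebf4 in some of the inhibitory clusters, such as 8, 10, 12 and 15, but not in 0 and 3.

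Ebf2, a factor of brown fat cells and of early-born cortical neurons, had its projection neuron signal in ET2. The level there was 176, 101 and 155 CPM in mice 1, 2 and 3 (144 ± 38.5 CPM). All other subclusters stood at 22.9 CPM or less in every mouse, and those other than subclusters 8 and 9 at 6.44 CPM or less, apart from M1 of mouse 1, where a count of 0 allows up to 18.6 CPM. Subcluster 9 had 12 Ebf2 UMIs in mouse 2 (7.91 CPM) and 2 in the 8 nuclei of mouse 3 (8.93 CPM). The lowest ET2 mouse was thus above the highest mouse of any other subcluster. Ebf2 was 6.90 higher in ET2 on the log2 scale (SE 0.26, adjusted p = 4.93e-19). It was found in 48.6% (44.0% to 53.2%) of ET2 nuclei, and in 27.4% after thinning to 3000 UMIs. The background share was 0.338% in cluster 0.

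Subcluster 8 followed with 0, 22.9 and 0.806 CPM of Ebf2. Its contrast was 2.47 on the log2 scale (adjusted p = 0.00913), but it rested on 21 UMIs in 6 nuclei of mouse 2 and was -0.79 without that mouse. ET2 and subcluster 8 differed by 3.94 on the log2 scale (SE 0.49, adjusted p = 3.29e-07, with 18.6% of genes differing), with no overlap of the mice. M1 was at 0, 0.958 and 0.797 CPM. Cluster 13, which contains M1, was nevertheless called higher in Ebf2 than the mean of all clusters by 1.49 on the log2 scale (adjusted p = 0.0147), a call lost without mouse 2 and in DESeq2.

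Cluster 18 was a further source of Ebf2, with 214, 145 and 239 CPM (199 ± 48.8 CPM) in mice 1, 2 and 3. Cluster 14, which holds the ET2 nuclei, had 176, 99.7 and 155 CPM (143 ± 39.3 CPM). Cluster 18 was the higher in each of the 3 mice, although the ranges over mice overlapped, and the fitted difference was 0.07 on the log2 scale (SE 0.30, adjusted p = 0.901). Ebf2 was 8.32 higher than in the other clusters on the log2 scale (SE 0.27, adjusted p = 5.95e-32), and 8.24 in cluster 14 (SE 0.20), where 8.96% of genes were higher. Within cluster 18, Ebf2 was more often found in nuclei with each of the 5 fibroblast markers than in the rest, and for the vascular markers the direction was mixed. It was found in 54.5% of 101 nuclei with Dcn and in 15.3% of those without, in 1 of 23 nuclei with Cldn5, in 1 of 13 with Abcc9 and in 0 of 19 with Pecam1. The vascular markers Vtn (48.4% of nuclei with it, 25.6% of those without) and Pdgfrb (45% and 34.5%) had the direction of the fibroblast markers. As these nuclei are not replicates, the shares are given without a test.

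Ebf3, a factor known from developing neurons, was the most evenly present member in ET2. Its level was 393, 323 and 406 CPM (374 ± 44.9 CPM) in mice 1, 2 and 3. No other subcluster exceeded 25.1 CPM in any mouse, so that ET2 did not overlap with any of them. Ebf3 UMIs were found in 90.7% (87.7% to 93.1%) of ET2 nuclei and in 85.5%, 91.1% and 93.1% by mouse, with a median of 4 UMIs per nucleus. Thinning to 3000 UMIs left 59.5%, against 0 of 681 M1 nuclei and 0.106% of cluster 0. The contrast was 8.35 on the log2 scale (SE 0.28, adjusted p = 3.02e-20), and cluster 14 gave 9.19 (SE 0.17). ET2 and subcluster 8 (0, 25.1 and 0 CPM) differed by 5.27 (SE 0.55, adjusted p = 1.56e-08).

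In M1, Ebf3 had 6 UMIs in all, 0, 0.120 and 0.996 CPM in mice 1, 2 and 3. ET1 had 8.08, 0.823 and 1.46 CPM, of which 16 UMIs were in a single nucleus. Cluster 4, with the ET1 and ET4 markers, was called 1.04 higher on the log2 scale (adjusted p = 0.0380, with 10.5% of genes higher). Without the 5% of nuclei with the most UMIs the value was -0.29.

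A second source of Ebf3 was cluster 20, in which all 5 microglia markers were at their highest. Its level was 65.0, 28.4 and 9.97 CPM (34.5 ± 28.0 CPM) in mice 1, 2 and 3, from 4, 16 and 2 UMIs. The mice varied widely, the value of mouse 3 was below the 3 counts that serve as a floor, and none reached the level of cluster 14. The log2 difference from the other clusters was 4.85 (SE 0.60, adjusted p = 1.50e-09), where 10% of genes were higher, and the call held in all 9 alternatives. Ebf3 was found in 12 of 146 nuclei (8.22%, 4.32% to 13.9%), at a median depth of 3405 UMIs. Of the microglia markers, Cx3cr1 was found in 12 of these 12 nuclei (114 of all 146), Csf1r in 11 (126), P2ry12 in 10 (116), C1qa in 9 (129) and Tmem119 in 7 (73). None had Mrc1 or F13a1, genes of other brain macrophages, each of which was in 29 of the 146.

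Ebf4, the least studied member, had a different distribution. Its highest levels were in some of the clusters with markers of inhibitory neurons, the local interneurons of the bulb. Cluster 15 had 36.5, 30.0 and 29.1 CPM (31.9 ± 4.02 CPM) and cluster 10 24.5, 28.0 and 42.0 CPM (31.5 ± 9.25 CPM). Cluster 8 had 38.7, 22.4 and 24.03 CPM and cluster 12 16.8, 21.2 and 45.0 CPM. The mice of these clusters overlapped, and none of the neighbours in their order differed (adjusted p between 0.826 and 0.997).

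Ebf4 was higher than in the mean of the others in 9 clusters. The log2 fold change was 2.69 in cluster 10 (SE 0.30, with 5.65% of genes higher), 2.65 in cluster 15 (SE 0.36, 6.7% of genes), 2.45 in cluster 8 (SE 0.27, 7.11%) and 2.38 in cluster 12 (SE 0.33, 5.68%). It was 2.12 in cluster 7 (5.66% of genes higher), 1.79 in cluster 6 (6.35%) and 1.71 in cluster 17 (7.8%). The calls of clusters 8, 10, 12 and 15 held in all 9 alternatives. Outside the inhibitory clusters, cluster 11, with most markers of olfactory ensheathing glia, gave 1.503 (15.9% of genes higher) and the precursor cells of cluster 19 gave 1.92, a call lost without mouse 1 (adjusted p = 0.0671).

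The inhibitory clusters were not alike in Ebf4. The largest of them, cluster 0, had 3.23, 3.62 and 2.96 CPM, below every mouse of clusters 6, 7, 8, 10, 12 and 15. Cluster 3, which carries 7 of 7 inhibitory markers, was lower still, at 0.244, 0.702 and 1.22 CPM. In cluster 15, 19.6% (15.3% to 24.5%) of nuclei had an Ebf4 UMI at a median of 8471 UMIs, against 2.10% in cluster 0 at 7563. After thinning to 3000 UMIs the shares were 6.71% and 1.05%, and 1.06% (0.2199% to 3.08%) of the oligodendrocytes of cluster 16 had one without thinning.

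Among projection neurons Ebf4 was sparse. ET2 had 9.26, 5.42 and 4.23 CPM (6.30 ± 2.63 CPM) and subcluster 8 had 5.88, 7.64 and 4.83 CPM, while T1 and the M1 nuclei of mice 2 and 3 had 1.08 CPM or less. M1 of mouse 1 had no Ebf4 UMI, which allows up to 18.6 CPM. Subcluster 2 had 2.58, 2.07 and 4.86 CPM, and M3 had 1.82, 0.883 and 6.44 CPM, the last from 4 UMIs. Subcluster 9 had 5.27 CPM in mouse 2, and 4.14 and 17.9 CPM in the 9 and 8 nuclei of mice 1 and 3. ET2 and subcluster 8 were both higher than the mean of the others, ET2 by 2.43 (SE 0.47, adjusted p = 0.000158) and subcluster 8 by 2.54 on the log2 scale (adjusted p = 0.00606). The ET2 call held in all 9 alternatives, and that of subcluster 8 was lost without mouse 1 or mouse 2. Only 5.73% (3.81% to 8.23%) of ET2 nuclei had an Ebf4 UMI, and 1.08% after thinning.

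All 4 members were higher in ET2 than in the mean of the other subclusters, where 6.75% of all genes were. Against the other clusters of all nuclei, cluster 14, which holds ET2, was not higher in Ebf4 (0.15 on the log2 scale, adjusted p = 0.95). Within ET2, Ebf1, Ebf2 and Ebf3 were often found in the same nucleus. In subcluster 8, Ebf1, Ebf2 and Ebf4 were higher (4.24% of all genes), and with the mouse as a block also Ebf3 (2.42, adjusted p = 0.0497). Of the 471 ET2 nuclei, 36.9% had Ebf3 alone, 23.1% had all of Ebf1, Ebf2 and Ebf3, 21.9% had Ebf2 and Ebf3, 8.70% had Ebf1 and Ebf3, and 5.52% had none. Ebf1 without Ebf3 was rare, with 1 nucleus that had Ebf1 alone and 8 that had Ebf1 and Ebf2. Few ET2 nuclei of any kind lacked Ebf3. Pooled over mice, it was found in 94.3% of nuclei with Ebf1 and 88.8% of those without, and in 64.2% and 57.8% after thinning to 3000 UMIs. In the M1 nuclei, in contrast, 11 had an Ebf2 UMI and 6 an Ebf3 UMI, of 686.

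**Figure D4:**
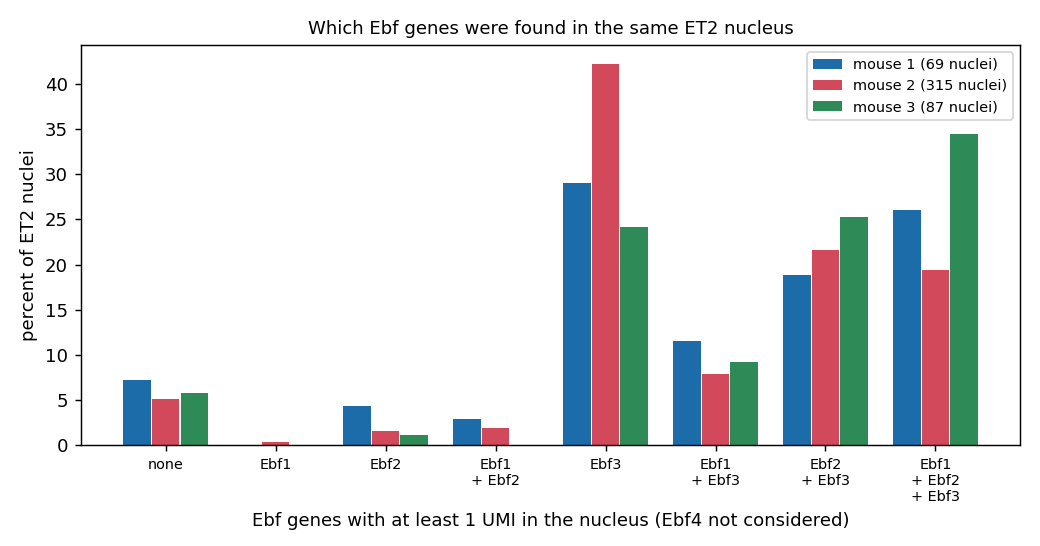
Percent of ET2 nuclei by the Ebf genes of which they had at least 1 UMI (Ebf4 left out), a bar per mouse. Ebf3 alone and the combinations of Ebf3 with Ebf1 and Ebf2 make up most nuclei of each mouse, while patterns without Ebf3 are rare.

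Ebf2 was more often found in ET2 nuclei that had Ebf1. The share with Ebf2 was 71.4%, 72.0% and 78.9% in nuclei with Ebf1 of mice 1, 2 and 3, and 39.0%, 32.9% and 46.9% in those without. All 3 mice had the same direction, and the ranges did not overlap. The difference was 34.5 ± 4.02 percentage points (SD, n = 3), and 33.1 ± 19.3 after thinning to 3000 UMIs, so that its mean was kept while the spread between mice was larger.

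Since 99 ET2 nuclei had 5 or more Ebf1 UMIs and 312 had none, these were summed per mouse and compared (21, 48 and 30 against 41, 222 and 49 nuclei). This comparison was added after the data had been seen, Ebf1 was left out of it, and the 60 nuclei between the limits were not used. Nuclei with Ebf1 were deeper (median 13767, 13646 and 19228.5 against 10758, 10708 and 12639 UMIs). In edgeR, 56 of 8186 genes were higher (0.684%) and 32 lower (0.391%), and 72 and 59 with the mouse as a block. With 1 mouse left out, 12 to 40 were higher and 13 to 38 lower, and with nuclei of at least 10000 UMIs 31 and 24.

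Ebf2 was among the higher genes, with 386, 187 and 214 CPM in the Ebf1 nuclei and 52.1, 59.7 and 98.1 CPM in those without. The groups did not overlap, and the difference was 1.92 on the log2 scale (SE 0.28, adjusted p = 0.00131). Ebf3 differed by 0.38 (adjusted p = 0.50), with overlapping mice.

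Nrp2, a receptor for class 3 semaphorins, rose most, with 204, 129 and 140 CPM against 4.16, 9.18 and 24.5 CPM (log2 difference 3.73, SE 0.37, adjusted p = 5.74e-05). Other genes with the largest differences and no overlap were Slit1, a guidance ligand (3.62), and Vwc2l (2.91), whose calls, like that of Nrp2, held with each mouse left out. Hcrtr2, an orexin receptor (3.33), the transcription factor gene Maf (3.03), Lingo2 (2.96) and Gm6999 (2.77) each lost the call without at least 1 mouse, Maf without mouse 2 (adjusted p = 0.0535) and Lingo2 without mouse 1 (0.0903). Hcrtr2 was also not called in DESeq2 (adjusted p = 0.396). Calb2, the calcium-binding protein calretinin, was higher by 2.02.

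On the lower side, Gpc6, a glypican of the cell surface, had 110, 110 and 89.4 CPM against 641, 754 and 606 CPM (-2.65, SE 0.17, adjusted p = 1.94e-07). Dock10 (-2.91), Pcsk5 (-2.52) and Npas3 (-1.83) were lower too, and these 4 calls held with each mouse left out. Col6a4 (-3.49), Olfm3 (-2.20), Sh3rf3 (-2.10) and Arhgap6 (-2.06) were lower as well, with calls lost without mouse 1 and, except for Olfm3, without a further mouse. Nr2f2, an orphan nuclear receptor on the ET2 list, had 68.0, 71.8 and 54.3 CPM against 235, 205 and 227 CPM (-1.73, SE 0.20, adjusted p = 0.000161).

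The subtype marker lists were set beside these counts. Of the 7 ET2 markers, all tested, 0 were higher and 1, Nr2f2, was lower (0.391% of all genes), and Lhx1, Trp73 and Uncx did not pass. The summed level of the 7 was 547, 459 and 542 CPM in the Ebf1 nuclei and 793, 641 and 716 CPM in those without. It was lower in all 3 mice without overlap, but it includes Nr2f2 (68.0, 71.8 and 54.3 against 235, 205 and 227 CPM). Edn1 was also lower in all 3 mice, and Lhx1 was higher in all 3. For Trp73, Uncx, Psrc1 and Dsp the direction differed between mice, so that the fall was not shared by the whole list. Of the 13 M1 markers, 4 could be tested, and Nrp2 alone was higher (0.684% of all genes). The summed level of the M1 markers was 362, 389 and 242 CPM in the Ebf1 nuclei and 87.5, 184 and 169 CPM in those without, against 6331 CPM in M1. Without Nrp2 it was 159, 260 and 102 CPM against 83.3, 174 and 144 CPM, so that mice 1 and 2 were higher in the Ebf1 nuclei and mouse 3 lower. The part of depth and of M1 markers in these differences was not tested.

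**Figure D5:**
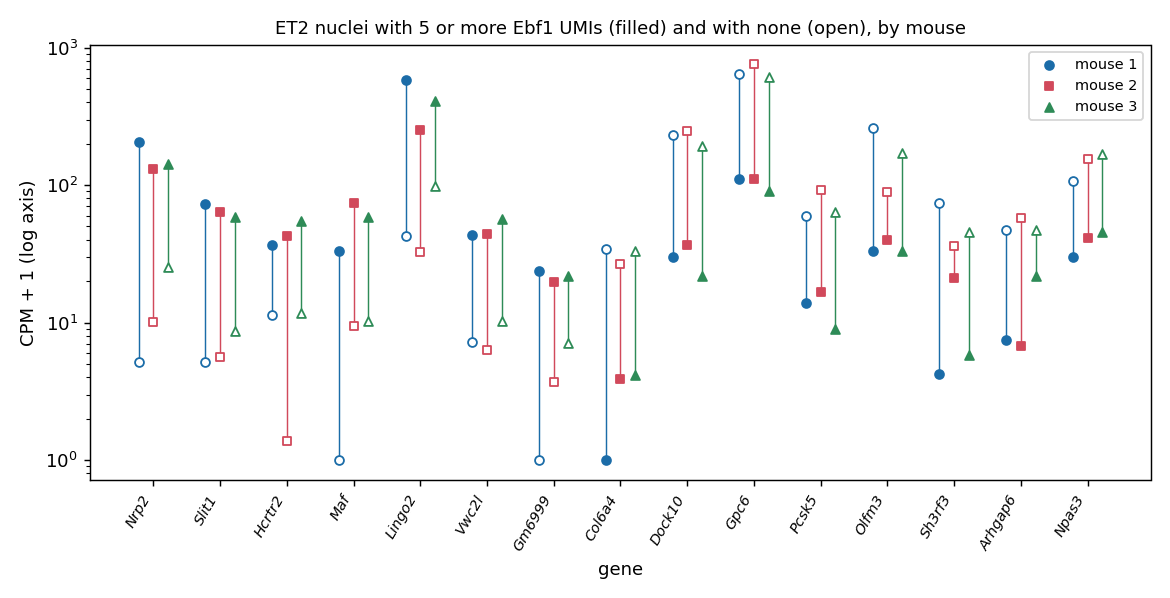
ET2 nuclei with 5 or more Ebf1 UMIs (filled) and without Ebf1 (open), with CPM + 1 on a log axis, for the 7 higher and 8 lower genes named for the largest log2 differences among those called without overlap. Lines join the values of a mouse, and every line runs in the direction of the gene's call.

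Genes known to act with Ebf factors were described from a list of 18 partners and related regulators, of which 11 had enough counts to be tested. Between subclusters, 10 of the 11 differed, as did 66.6% of all genes. In M1, 1 was higher (Nhlh2, a call lost without mouse 1) and 3 were lower (6.88% and 4.24% of all genes), with a median log2 difference of -0.41 beside -0.01 over all genes. In ET2, 4 were higher and 3 lower (6.75% and 6.6% of all genes), with a median of 0.29 beside 0.02. Zfp423 and Zfp521, zinc finger proteins that bind Ebf factors, were higher in ET2, at 49.99 ± 9.35 and 82.6 ± 26.6 CPM. Zfp521 was lower in M1, at 3.67 ± 2.21 CPM (-3.77, adjusted p = 1.81e-10), and Zfp423 did not pass there (11.4 ± 9.97 CPM). Id4, an inhibitor of basic helix-loop-helix factors, was higher in ET2 (19.2 ± 8.60 CPM) and Id2 lower (21.7 ± 6.58 CPM). The neuronal helix-loop-helix genes Neurod2 and Neurod6 were lower in M1 and in ET2, where no mean exceeded 0.965 CPM, beside 14.5 and 10.4 CPM in the other subclusters. Nhlh2 was higher in ET2 at 16.1 CPM, and in M1 at 0.744 CPM. Without mouse 1 its M1 mean was 1.12 CPM, and the call was lost (log2 difference 1.99, adjusted p = 0.0886).

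The known target genes of Ebf factors in other tissues were mostly too low to test. Of 10 B cell genes, 1 was tested, Foxo1, which was lower in M1 (11.5 ± 6.26 CPM, log2 difference -2.11) and is also a marker of ET4. Of 6 genes of olfactory sensory neurons, 2 were tested, and the adenylate cyclase gene Adcy3 was lower in ET2 (5.34 ± 0.976 CPM, -2.001), while Omp had no UMI in M1 or ET2. Of 6 fat cell genes, 5 were tested. Cebpa was higher in ET2 (6.05 ± 2.83 CPM) and Ppargc1a lower in M1 (36.4 ± 6.12 CPM). Over all genes, 4.24% were lower in M1, and 6.75% were higher and 6.6% lower in ET2.

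Cajal-Retzius cells, the reelin neurons of the cortical surface, also use Ebf factors, and 10 of their genes were listed with earlier results of these data known. All 10 were tested, and 7 were higher in ET2 and 1 lower, with a median log2 difference of 4.68, beside 6.75% higher, 6.6% lower and a median of 0.02 over all genes. Among the 6 of them that are neither M1 nor ET2 markers, 3 were higher in ET2 and 1 lower, with a median of 1.56. Trp73, Lhx1 and Nr2f2, which are ET2 markers chosen on these samples, stood at 186 ± 38.7, 91.5 ± 2.04 and 156 ± 15.9 CPM. Cacna2d2 (132 ± 9.51 CPM), Tbr1 (85.1 ± 2.84 CPM), Lhx5 (22.5 ± 1.48 CPM) and Nhlh2 were the others. Ndnf was lower in ET2 (26.7 ± 5.48 CPM), and Reln and Calb2 were not called there. In M1, 5 were higher and 2 lower, with a median of 0.31, beside 6.88% higher, 4.24% lower and a median of -0.01 over all genes. Reln (2349 ± 228 CPM), Calb2 (193 ± 82.1 CPM), Ndnf (135 ± 37.4 CPM) and the M1 marker Lhx5 (16.6 ± 9.04 CPM) were higher there with Nhlh2, and Tbr1 and Cacna2d2 were lower. Without mouse 1, the listed genes called in M1 kept their calls, except for Nhlh2 (1.99, adjusted p = 0.0886), and the means were 2471 CPM for Reln, 239.6 CPM for Calb2, 157 CPM for Ndnf and 21.8 CPM for Lhx5.

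The genes most like each member were ranked by Pearson's r of log2(CPM + 1) over the 27 subcluster sums among 12553 genes. The points share mice and libraries, and no test was made. For Ebf1 they were the noncoding Gm31938 (r = 0.92), Gm27199 (0.86), 2610037D02Rik (0.84), Rassf2 (0.84) and Eml1 (0.84). Those of Ebf2 were Gm29683, Gm35842 and Ngfr (each 0.95), followed by Dsp and Nr2f2 (0.94). Ebf3 was closest to 4930438E09Rik (0.98), Dsp and Lhx1 (0.97) and Trp73 and Psrc1 (0.96), and Ebf4 to Zeb2 (0.79), Prokr2, Ncam1 and Nfib (0.78) and Ubap2 (0.77). Between members, r was highest for Ebf2 and Ebf3 (0.93) and lowest for Ebf1 and Ebf4 (0.21).

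Over the 65 cluster sums and 15975 genes, the list changed with the cells included. Ebf1 was closest to Gm31938 and Gm12158 (0.74), Samd3 (0.69), Nrp2 and Gm27199 (0.68). Ebf2 was closest to 4930438E09Rik (0.94) and then to Carmn (0.91), Fmo2 (0.90), Slc5a5 (0.86) and Gm30613 (0.85), which were highest in cluster 18. Ebf3 was closest to Uncx (0.86), Lhx1os (0.81), Gm10578 (0.80), Trp73os and Gcgr (0.79), and Ebf4 to Fnbp1l (0.78), Zfp647 (0.75), Col19a1 (0.74), Gins2 (0.73) and Dmd (0.70).

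Of these, 3 are antisense genes of the Ebf loci. Having been picked for likeness, they had UMIs that followed those of the members. Gm12158 had 455 of its 533 UMIs in M1 and 33 in ET2, Gm10578 had 95 of 100 in ET2, and 4930438E09Rik had 150 of 220 in ET2 and 25 in cluster 18. Of the antisense genes not ranked, Gm6878 had 15 of 32 UMIs in ET2 and 16 outside M1, ET2 and cluster 18. Gm10860 had 9 of 21 in ET2 and 9 outside those groups, and Gm45278 had 1 UMI. Whether these are transcripts of their own or reads of the sense gene cannot be told apart here.

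The promoters of the members were searched for the sequence that Ebf factors bind. RefSeq windows around the gene starts (GRCm38.p6) were at hand for Ebf1, Ebf3 and Ebf4, and the motif TCCCNNGGGA, read on both strands, was in none of them, as in all but 0.904% of 32851 windows. Its core CCCNNGGG, found in 13.7% of windows, was in that of Ebf3. Of the 36 genes most like a member, 25 had a window, and the full motif was in that of Eml1 and the core in those of Dsp, Eml1, Gcgr, Lhx1os and Psrc1.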

How the data were processed

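The members and gene lists were chosen with earlier results of these data known. For every mouse the authors deposited a matrix of UMI counts, not normalized, from Cell Ranger 3.0.2 on mm10 (GRCm38), as the submitters' processing notes name them. A further deposited table lists the nuclei retained by the authors with their clusters and subclusters. Its percent of mitochondrial UMIs was computed by the authors, and its 6 other numeric columns were not used. The authors' rule (at least 1000 genes, at most 5% mitochondrial UMIs) gave 5846, 21105 and 4753 nuclei, 1 more than listed. The sort gated out joined nuclei, which does not remove droplets that hold several nuclei, and no doublet caller was run. Per mouse, the retained nuclei held 58526996, 213891496 and 62929479 UMIs, and their precision is given by the UMIs behind each value.

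Counts were summed per mouse and cluster or subcluster where at least 10 nuclei were present in each of at least 2 mice. The sums were tested with edgeR 4.0.16 (quasi-likelihood test, filterByExpr, TMM, Benjamini-Hochberg over all genes; R 4.3.3). A call needed an adjusted p below 0.05, and in contrasts also an absolute log2 fold change above 1. The script was tested on simulated data. Subclusters were named from the study's marker lists without the Ebf genes. The limit that a level of 0 allows is 3 counts. Python 3.11.15 was used for the tables.

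All 4 members are named, and for each the 5 genes with the highest r that reach 10 CPM in a library, and the listed genes called for M1 or ET2. In the added comparison within ET2, the 7 higher and 8 lower genes named for the size of their difference were chosen after their values were seen, and 1 further gene is not reported here.

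Sums with the same number come from the same mouse, so that they are paired. Their deviations correlated with a mean r of 0.13 over 108 pairs (65 above 0.1), against -0.06 over 216 pairs of other mice. Alternatives were a mouse block, library size scaling, DESeq2 1.42.0, no filter on low counts, leaving out each mouse, nuclei with at least 1500 genes, leaving out the 5% of nuclei with the most UMIs, and thinning to 3000 or 2000 UMIs. The p-values set a difference against the spread between these 3 mice, in a fit without a mouse term unless the block is named.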

Additional observations from a re-analysis of the deposited data

How the results depend on the processing

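With the mouse as a replicate block, 5 neighbouring pairs differed in place of 3, and 7 without a filter on low counts. The block added calls of Ebf1 in M2 (-1.21, adjusted p = 0.0484, lower), Ebf4 in subcluster 2 (1.27, 0.0476, higher), Ebf3 in subcluster 8 (2.42, 0.0497, higher) and Ebf1 in clusters 7 and 12 (-1.99 and -2.36, lower), and changed no other contrast of a member. With a mouse left out, 9 to 14 contrasts of a member between subclusters were called in place of 18. Ebf2 in subcluster 8 ranged from -0.79 to 3.31, with -0.79 without mouse 2. Ebf3 in cluster 4 was -0.29 without the 5% of nuclei with the most UMIs. The level of Ebf2 in cluster 18 was 295 CPM as a mean over nuclei.

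Thinned to 3000 and 2000 UMIs, the mean share over mice was 30.2% and 23.97% for Ebf1 in ET2, 33.6% and 19.97% for Ebf2, 60.2% and 49.5% for Ebf3, 6.40% and 4.84% for Ebf4 in cluster 15, and in cluster 18 52.1% and 46.4% for Ebf1 and 25.7% and 28.0% for Ebf2. In the comparison within ET2, 28 genes were higher and 14 lower with 1 or more Ebf1 UMIs as the limit, 31 were higher among nuclei of at least 10000 UMIs, 59 were lower with the block and 74 without the filter. Leaving out a mouse gave 12 to 40 higher and 13 to 38 lower genes. The cause was not tested.

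Of the summaries, 123 stayed close to the main value, which for levels and shares means within the SD over mice. A further 13 moved beyond that SD, and 8 counts of genes or contrasts were smaller and 4 larger. Of the single contrasts, 478 kept their direction and side of the threshold. In 74 the direction was kept but the call was lost, and 2 were reversed. All 8 lower calls of a cluster were lost without mouse 2. Depth limits the shares of nuclei, since shallow nuclei can miss a gene that they express, and the M1 values of mouse 1 rest on 14 nuclei.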
